A study of Mus musculus with 6 samples.

Results

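MYOD1 and the other regulators of the muscle programme were examined on every spot that carried one of their human gene symbols. Of 10 symbols looked for, 3 were found among the 1521 genes measured: MYOD1 (Entrez Gene 4654), MYF6 (Entrez Gene 4618) and MEF2D (Entrez Gene 4209). Each had 1 probe printed in 2 spots, so the 3 genes rest on 6 of 5376 spots. For MYOG, MYF5, MEF2A, MEF2C, ID1, ID2 and ID3, no spot carried the symbol, and they were not analysed here. The study set the clone MyoD(-)cl.A8 of the mouse C3H myoblast line C2C12 against C2C12 control cells after 1, 3 and 6 days in horse serum medium, following growth in fetal bovine serum. The clone carries the mouse MyoD transcript in antisense orientation in a pcDNA expression vector and was selected with G-418; the sources used here do not say whether the control cells carried an empty vector. Each day has 2 arrays of the same pair of RNAs: on replicate A the clone was labelled with Cy5 and the control with Cy3, and on replicate B the dyes were exchanged. The single clone and the single RNA pair per day limit what these groups can represent.

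MYOD1 encodes MyoD, the basic helix-loop-helix factor that can turn other cells into muscle. It pairs with E proteins and binds E-boxes, short DNA motifs of the form CANNTG, in the control regions of muscle genes. MYF6, also called MRF4, is a factor of the same family that acts mainly late in muscle differentiation. MEF2D belongs to the MEF2 family, MADS-box proteins that bind A/T-rich sites and act together with the MyoD family. The ID proteins hold E proteins away from MyoD.

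The deposited values are scores of unstated scale, and a value near 0 means that clone and control were read alike. A positive score is likely to mean higher in the clone, because the labels name the clone as test and the control as reference. Across features, replicates A and B of a day correlated at 0.164 to 0.206, so their signs were taken to run the same way. Both had the same sign in 53.6%, 53.5% and 56.4% of features on days 1, 3 and 6. Features are the 1521 genes and 945 probes without a gene name, 2466 in all, and array SDs over them lay between 1.07 and 1.28. The duplicate spots of a probe correlated at 0.249 to 0.602 within an array. Signal over background is not known here, and how well a human probe binds the mouse RNA of its gene was not tested. The number of arrays limits the precision, and p-values over the days rest only on the spread of 3 RNA pairs from 1 clone. Those for differences between days rest only on technical spread, that of the 2 dye-swapped arrays of the same RNA pair.

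MYOD1, the silenced gene itself, was read close to 0 at all 3 times. Its centred score, the mean of both spots minus the array median, was 0.41 on replicate A and -0.36 on replicate B of day 1. On day 3 the arrays gave 1.11 and -1.03, and on day 6 they gave 0.50 and 0.26. Replicates A and B thus had opposite signs on days 1 and 3, and day 6 was the only time with both arrays above 0. The day means were 0.024, 0.038 and 0.38, the last being 0.69 with neighbouring probes subtracted. Over the days the mean was 0.15 ± 0.20 (SD, n = 3 days), with a 95% interval of -0.76 to 1.06 and an adjusted p of 0.983 in limma. The values do not exclude a mean anywhere in that interval, and a call over all features took a larger one. H2AZ1, a histone variant, did not pass at -1.56 (adjusted p = 0.240 in limma). The size of the mean exceeded that of 23.9% of all features. This value does not test whether MyoD was silenced: the construct is itself transcribed from MyoD sequence, and the sources used here do not name the strand that the probe binds.

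The spots of MYOD1 show how much of this spread lies within an array. As deposited, the first spot gave 1.11 and -0.33 on day 1, 0.25 and 0.029 on day 3, and 0.74 and 0.91 on day 6 for replicates A and B. The second spot gave -0.27 and -0.37 on day 1, 1.97 and -2.02 on day 3, and 0.12 and -0.36 on day 6. The day 3 values of 1.97 and -2.02 come from the same spot and cancel in the day mean. The gap between the spots was widest on the day 3 replicate B, at 2.05 units, larger than the gap of 79.2% of duplicate pairs on that array. Over the 6 arrays the SD between the spots was 0.96 for MYOD1, against a median of 1.07 for all probes. The spots of MYOD1 were about as far apart as those of a typical probe.

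**Figure D1:**
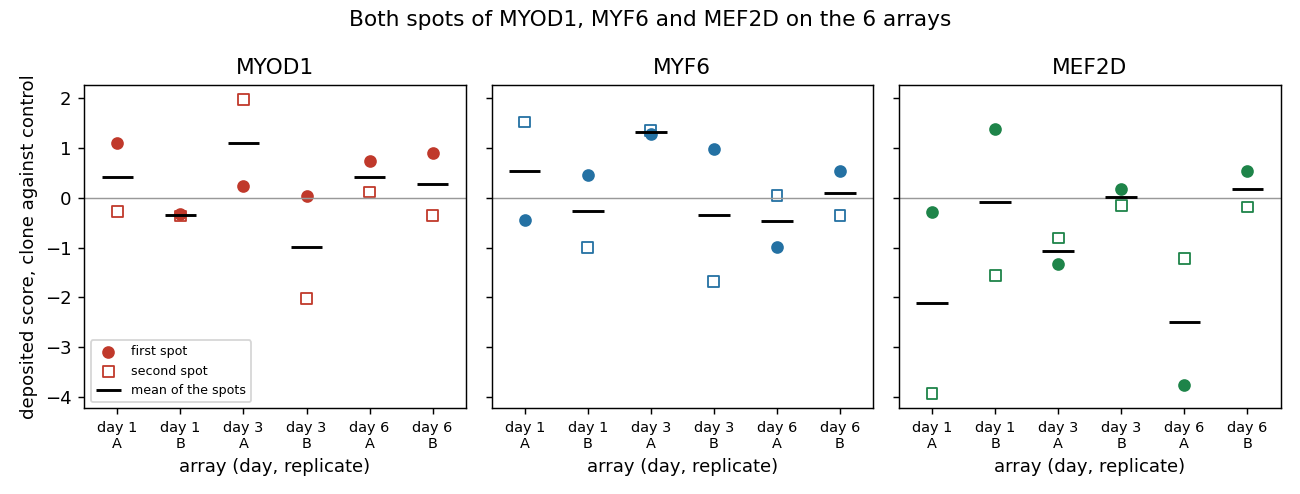
Deposited scores of the first spot (filled circles), the second spot (open squares) and their mean (black bars) on each array, with the array on the x axis and the score of clone against control on the y axis. MYOD1 and MYF6 scatter around 0, while the spot means of MEF2D are below -1 on the 3 arrays of replicate A and close to 0 on those of replicate B.

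MYF6 was also read near 0. Its centred scores were 0.54 and -0.29 on day 1, 1.32 and -0.38 on day 3, and -0.40 and 0.073 on day 6 for replicates A and B. On each of the 3 days the arrays had opposite signs. The day means were 0.12, 0.47 and -0.16; the last was 0.30 with neighbouring probes subtracted or with the second spot alone. Their mean was 0.14 ± 0.32 (SD, n = 3 days; 95% interval -0.77 to 1.06; adjusted p = 0.983 in limma). The spots differed in sign on 5 of the 6 arrays, the exception being the day 3 replicate A, where they read 1.28 and 1.35. The SD between its spots was 1.12.

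MEF2D stood lower than the other regulators. Its centred scores were -2.12 and -0.11 on day 1, -1.07 and -0.015 on day 3, and -2.42 and 0.16 on day 6 for replicates A and B. The arrays of replicate A, at -2.42 to -1.07, did not overlap those of replicate B, at -0.11 to 0.16. The day means were -1.11, -0.54 and -1.13. The mean over the days was -0.93 ± 0.34 (SD, n = 3 days), with a 95% interval of -1.84 to -0.011. Its unadjusted p was 0.0476, and it did not pass over all features (adjusted p = 0.731 in limma). At an unadjusted p under 0.05 there were 164 of 2466 features, 6.65% of them, so MEF2D is 1 of many at that level. The size of its mean exceeded that of 91.9% of features. With neighbouring probes subtracted the mean was -0.74 (adjusted p = 0.823 in limma), and the day means were -0.67, -0.42 and -1.13. As deposited, the median of its 10 neighbouring probes was -0.95, -0.34 and -0.13 on replicate A for days 1, 3 and 6. On replicate B it was 0.065, 0.13 and 0.12. What position on the array adds to the score of MEF2D was not tested.

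The spots of MEF2D did not tell the same story on every array. The first spot read -0.29, -1.32 and -3.77 on replicate A and 1.39, 0.19 and 0.55 on replicate B for days 1, 3 and 6. The second spot read -3.94, -0.81 and -1.22 on replicate A and -1.57, -0.15 and -0.18 on replicate B. The second spot was thus below 0 on all 6 arrays, while the first was below 0 only on replicate A. On the day 1 replicate A they lay 3.65 units apart, more than 95.9% of duplicate pairs of that array. The SD between the spots of MEF2D was 1.57, the largest of the 3 genes. With the first spot alone the mean over the days was -0.90, and with the second alone -0.97.

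Since replicates A and B differ in which dye carried the clone, their difference was examined for each gene, a comparison chosen after the values had been seen. For MEF2D, replicate A minus replicate B was -2.01, -1.05 and -2.59 on days 1, 3 and 6, a mean of -1.88 ± 0.78 (SD, n = 3 days; 95% interval -3.49 to -0.28). For MYOD1 the differences were 0.77, 2.14 and 0.24, with a mean of 1.05 ± 0.98. For MYF6 they were 0.82, 1.70 and -0.47, with a mean of 0.68 ± 1.09. The adjusted p-values in limma were 0.974, 0.974 and 0.992. By this test 0 of 2466 features passed (0%), against 107 (4.34%) at an unadjusted p under 0.05, among them MEF2D with an unadjusted p of 0.0256. A difference of 1 sign on all 3 days, as in MYOD1 and MEF2D, was found in 603 features (24.5%).

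**Figure D2:**
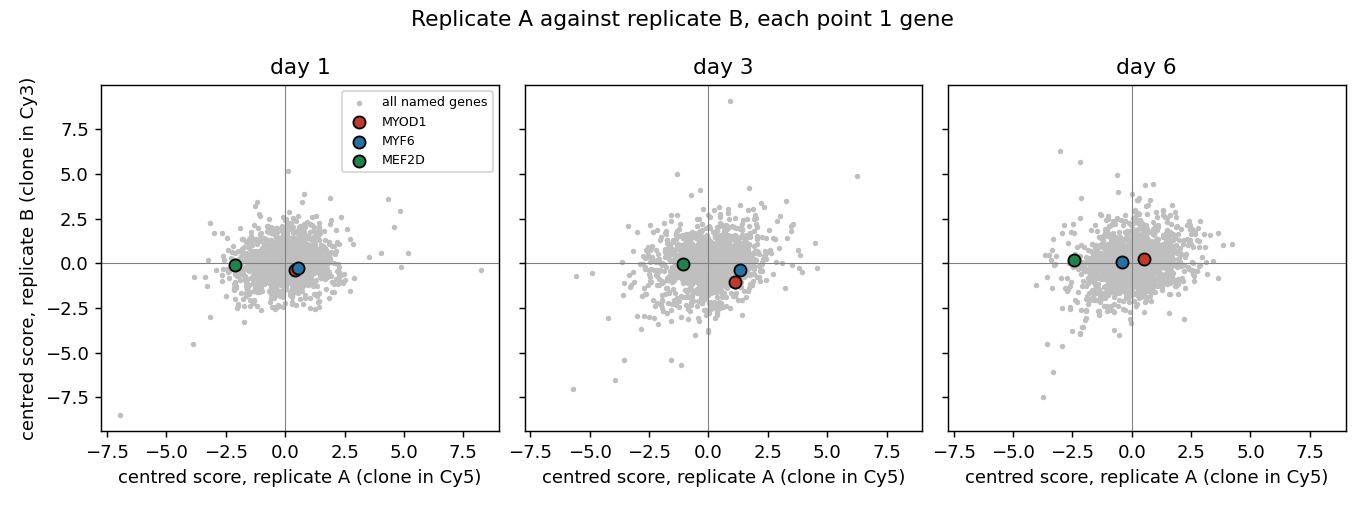
Centred scores on replicate A (x axis, clone in Cy5) against replicate B (y axis, clone in Cy3) on each day; grey points are the named genes and coloured points MYOD1, MYF6 and MEF2D. MEF2D lies left of the centre on every day at scores of -2.12, -1.07 and -2.42 on replicate A, with replicate B between -0.11 and 0.16.

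The question whether the clone and control differed on a single day was put by a threshold of 2 units on both arrays, since 1 RNA pair per day allows no test. None of MYOD1, MYF6 and MEF2D reached it on any day. In the background 20 features (0.811%) reached it on day 1, 31 (1.26%) on day 3 and 45 (1.82%) on day 6. MEF2D passed -2 on the replicate A arrays of days 1 and 6 only. In the test over the 3 days, 9 features passed, 0.365% of all, and none was MYOD1, MYF6 or MEF2D. That count was 10 with 6 separate arrays, and 5 when these were fitted with the replicate block, a term for the dye orientation of replicates A and B. For scale, the lowest score of any feature in that test was that of S100A6 (calcyclin), a title gene, at -4.70 (adjusted p = 0.000698). Its call ended without the day 3 replicate A (0.280), the day 6 replicate A (0.0751), day 3 (0.280) or day 6 (0.647; all adjusted p in limma), while its score was -4.92, -5.32, -3.86 and -4.25. Without day 3 or without day 6, 0 features passed at all. The intervals of MYOD1, MYF6 and MEF2D exclude a score of the size read for S100A6.

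**Figure D3:**
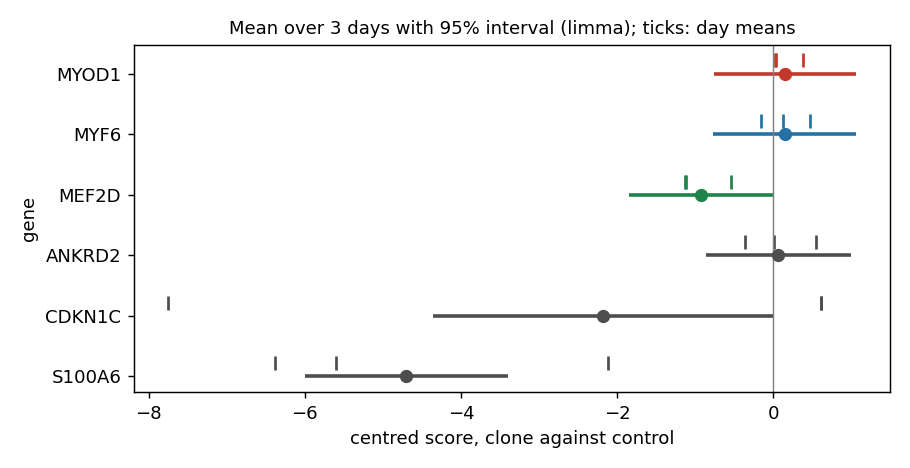
Mean over the 3 days (points) with limma's 95% intervals (bars) and the 3 day means (ticks, some overlapping) of MYOD1, MYF6, MEF2D and the title genes ANKRD2, CDKN1C and S100A6; the x axis is the centred score of clone against control. MYOD1 and MYF6 sit at 0.15 and 0.14, MEF2D at -0.93 and S100A6 at -4.70.

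Whether the difference between clone and control moved with differentiation was asked by comparing the days. From day 1 to day 6 MYOD1 changed by 0.35 (95% interval -1.69 to 2.40), MYF6 by -0.29 (-2.28 to 1.71) and MEF2D by -0.017 (-2.30 to 2.26). The spots of MEF2D gave opposite changes, -2.24 with the first alone and 2.23 with the second alone. The adjusted p-values in limma were 0.942, 0.957 and 0.999, with the spread between the dye-swapped arrays of a day as the only error. From day 1 to day 3 the changes were 0.014, 0.35 and 0.57, and from day 3 to day 6 they were 0.34, -0.63 and -0.59, again without a call (adjusted p of at least 0.907). In this fit 9 features (0.365%) passed for day 6 against day 1, 4 (0.162%) for day 3 against day 1 and 1 (0.0406%) for day 6 against day 3. With the replicate block the first count was 5. In 20.2% of features both day 6 arrays lay above both day 1 arrays, and in 19.6% both lay below; MYOD1, MYF6 and MEF2D were in neither set. The intervals reach about 2 units on either side, and the values do not exclude changes within them. A call over all features took more than that. PGAM2, a muscle glycolytic enzyme, changed by 4.01 from day 1 to day 6 and did not pass (adjusted p = 0.0904 in limma).

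The likeness of the 3 genes to each other differed by pair. Over the 6 arrays MYOD1 and MYF6 correlated at 0.74, MYOD1 and MEF2D at -0.56, and MYF6 and MEF2D at -0.19. The arrays share dyes and RNA pairs, so these are descriptions. MYF6 ranked 60 among 1520 genes by likeness to MYOD1. The genes most like MYOD1 were RPL10, a ribosomal protein (Pearson's r = 0.97 over 6 arrays), HINT2 (0.95), AHCYL1 (0.94), POLR1D (0.94), a subunit of RNA polymerases I and III, and GPX3 (0.92), a glutathione peroxidase. The least alike were TUT7 (-0.99), LAMTOR2 (-0.97), NQO2 (-0.95), ASB12 (-0.94) and SLC25A39 (-0.94). With 6 values a gene, 7 genes reached 0.9 and 9 reached -0.9. The shape they share with MYOD1 is mostly the contrast of the day 3 arrays: RPL10 read 0.52 and -0.52 there, and TUT7 read -0.99 and 1.55.

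Other genes of the pathway were taken from lists of regulators and targets. Of 18 listed partners and inhibitors of the helix-loop-helix family, 1 was measured: HES1, a repressor that acts downstream of Notch. HES1 read -0.72 and -0.78 on day 1, -1.14 and -0.12 on day 3, and -0.98 and 0.28 on day 6. Its mean was -0.58 ± 0.20 (SD, n = 3 days; adjusted p = 0.903 in limma), with 5 of 6 arrays below 0. Of 55 listed upstream factors and cofactors, 7 were measured, and 0 passed in limma in either direction, with 0 at an unadjusted p under 0.05. They had a median of -0.14, against 0.0028 for all features. The highest were PRMT5, an arginine methyltransferase, at 0.50, and IGFBP5, a binding protein of insulin-like growth factors, at 0.092. The lowest were TEAD4, a transcription factor of the Hippo pathway, at -0.31 and SMARCD3, the BAF60c subunit of SWI/SNF chromatin remodelling, at -0.28. SMARCD3 read -0.62, 1.07 and -1.30 by day. By day the medians of the 7 were 0.048, 0.72 and -0.23.

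Cell cycle exit accompanies the MyoD programme, and 4 of 18 listed genes were measured, of which 0 passed in limma and 1, H2AZ1, had an unadjusted p under 0.05. CDKN1C, the inhibitor p57, read -6.97 and -8.53 on the day 1 arrays. For replicates A and B it read 1.80 and -0.58 on day 3 and 1.76 and -0.54 on day 6. The mean was 0.61 on each of these days, from arrays of opposite sign. H2AZ1, a histone variant, was below 0 on all 6 arrays with a mean of -1.56 (adjusted p = 0.240 in limma), as was CCND3, cyclin D3, at -0.74 (0.803). The same sign on all 6 arrays was found in 136 of 2466 features (5.52%). E2F4, a repressor of cell cycle genes, stood at 0.14.

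The genes that MyoD, myogenin and MEF2 factors are known for switching on form the list with the most measured genes, 24 of 40. In the test over the days 0 of the 24 passed in limma, and 0 had an unadjusted p under 0.05. Their means were above 0 for 12 genes and below 0 for 12, with a median of -0.017. The highest were DES, the muscle intermediate filament desmin, at 0.90 and ACTC1, the cardiac actin of early myotubes, at 0.68. The lowest were MYH7, the slow myosin heavy chain, at -1.23, which stood at -3.66 on day 3, and ACTN2, the Z-disc actinin, at -0.78. Single arrays or days weigh on these means: DES was 0.43 without the day 6 replicate B, ACTC1 0.35 without the day 3 replicate A, and MYH7 -0.011 and ACTN2 -0.12 without day 3. Probes of a gene also differed. With probes kept separate, the first of 5 for MYH7 gave -2.07, the first of 3 for ACTN2 -1.48 and the first of 2 for DES 1.26. By day the list was less even: 10 of 24 day means were above 0 on day 1, 8 on day 3 and 18 on day 6, with medians of -0.13, -0.25 and 0.66. Over all features 50.2% of day means were above 0 on day 6. Over the same days MYOD1 stood at 0.024, 0.038 and 0.38, MYF6 at 0.12, 0.47 and -0.16, and MEF2D at -1.11, -0.54 and -1.13.

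**Figure D4:**
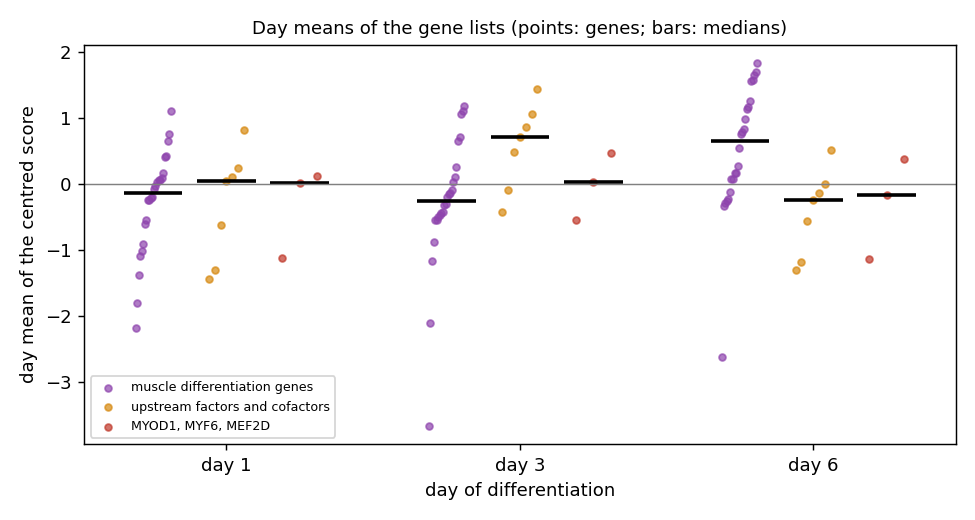
Day means of the centred score (y axis) for each measured gene of 24 muscle differentiation genes, 7 upstream factors and cofactors, and MYOD1, MYF6 and MEF2D on days 1, 3 and 6 (x axis), with black bars at the medians. The muscle differentiation genes have medians of -0.13, -0.25 and 0.66.

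Upstream sequence is shown for MEF2D and for the highest and lowest genes of that muscle list, since MyoD acts through E-boxes. The stretches are the 250 bases before the start site of the mouse genes, from RefSeq in build GRCm38.p6, matched by symbol. They run 5′ to 3′ with E-boxes (CANNTG, a motif that reads the same on both strands) in capitals. Mef2d lies at chr3:88142122-88142371 on the plus strand, Des at chr1:75360042-75360291 on the plus strand and the outer of the starts of Myh7 at chr14:54994627-54994876 on the minus strand.
Mef2d: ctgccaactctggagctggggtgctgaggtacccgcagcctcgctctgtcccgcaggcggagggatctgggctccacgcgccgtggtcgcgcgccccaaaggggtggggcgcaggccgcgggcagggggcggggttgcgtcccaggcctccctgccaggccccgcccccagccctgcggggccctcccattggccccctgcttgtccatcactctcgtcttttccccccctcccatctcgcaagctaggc
Des: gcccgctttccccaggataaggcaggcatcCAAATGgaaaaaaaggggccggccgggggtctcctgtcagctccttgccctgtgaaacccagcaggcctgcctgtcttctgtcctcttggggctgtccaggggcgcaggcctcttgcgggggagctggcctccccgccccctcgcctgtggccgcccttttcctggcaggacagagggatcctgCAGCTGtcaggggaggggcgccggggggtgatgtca
Myh7: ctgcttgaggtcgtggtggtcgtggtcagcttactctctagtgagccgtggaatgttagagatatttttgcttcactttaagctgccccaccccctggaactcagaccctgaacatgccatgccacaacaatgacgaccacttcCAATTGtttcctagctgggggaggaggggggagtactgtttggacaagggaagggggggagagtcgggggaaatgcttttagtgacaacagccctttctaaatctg
Mef2d, whose score was -0.93, had 0 E-boxes in this window. Des, at 0.90, had 2, of which 1 was CAGCTG, a core that MyoD binds well. Myh7, at -1.23, had 1 before its outer start, CAATTG, and 2 before its inner start. The inner window, not printed here, overlaps the outer one. Its 2 E-boxes are that same CAATTG and 1 CAGGTG. Of 32851 RefSeq promoters of this length, 66.2% held CANNTG and 13% held CAGCTG. Of 23 promoters of the 18 muscle list genes that matched, 21 (91.3%) held CANNTG and 11 (47.8%) held CAGCTG. The list was chosen for genes with such control, so this count is no finding. A match of letters is not a binding site, and none of these windows was measured here.

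Markers of the cells were read to check the labelled tissue. Since each score sets the clone against the control, it cannot say whether a marker was present in either, and fewer cells of a type cannot be told apart from less RNA per cell. Of 13 skeletal muscle markers 9 were measured and 0 passed in limma, with 0 at an unadjusted p under 0.05. All 9 are also among the 24 muscle differentiation genes above, so they add no separate evidence. Their medians by day were -0.54, -0.15 and 1.17, and 8 of 9 were above 0 on day 6, against 50.2% of all features. Beside DES and MYH7 the extremes were the slow troponin TNNT1 at 0.17 and myoglobin, MB, at -0.45. Of 22 markers of other lineages 5 were measured and 0 passed in limma, with 0 at an unadjusted p under 0.05 and a median of -0.044. Their medians by day were 0.36, -0.73 and 0.49, and 3 of 5 were above 0 on day 6. The smooth muscle gene TAGLN had a mean of -0.87 and was above 0 on 1 of 6 arrays, while CNN1, also of smooth muscle, stood at 0.25 and by day at -0.73, 0.12 and 1.36. VIM, a filament of mesenchymal cells, stood at -0.17, the fat enzyme SCD at 0.042, and FABP4 at -0.044. What part shifts in cell makeup have in the values of MYOD1, MYF6 and MEF2D was not tested.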

How the data were processed

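The 6 arrays measured RNA of the clone against control RNA, 2 per day. The values used are the authors' deposited scores per spot; filters, background correction, normalization and scale are not given in the sources used here. A few scores lie beyond the range that log2 ratios from a 16-bit scan allow, so no fold changes are given. Per the labels' protocols, total RNA was reverse transcribed and labelled with a tyramide kit. Duplicate spots were averaged, then probes of a gene, and arrays were centred on their medians. Symbols come from the platform's annotation.

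The 2 arrays of a day were counted as 1 replicate. Limma 3.58.1 in R 4.3.3 tested the 3 day means against 0 and, on 6 arrays, the differences between days (two-sided, Benjamini-Hochberg over 2466 features, threshold 0.05; tested on simulated data). Intervals are limma's, with moderated variances, and so do not follow from a gene's own SD. Replicate letters mark the dye orientation, per the labels; within-day differences of A and B correlated between days at -0.0018 to -0.038. Genes and lists were chosen with earlier results of these data known. Named were the 3 genes, the 2 highest and 2 lowest of each list, those that passed, and the 5 most and least like MYOD1; FABP4 was added after its value was seen. Alternatives were other units, scalings, spots, probes, neighbouring probes subtracted and samples left out; single spots were added after seeing the data. Figures used Python 3.11.15 and matplotlib 3.10.9.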

Additional observations from a re-analysis of the deposited data

Results flagged for a closer look

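CDKN1C differed between days in limma's fit, whose p covers only technical error, the spread of dye-swapped arrays of 1 RNA pair a day. It does not test the difference between the RNA samples of the days. CDKN1C moved by 8.36 from day 1 to day 6 (adjusted p = 0.00125, and 0.00550 with the replicate block) and by 8.36 from day 1 to day 3 (0.00375, and 0.00550 with the replicate block). Without the day 1 replicate A the change from day 1 to day 6 was 9.14 and without the day 1 replicate B 7.58. The call ended in both. These fits leave 1 array on day 1, and the loss of the call was not particular to CDKN1C. MYOD1, MYF6 and MEF2D did not pass in any comparison of days.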

How the results depend on the processing

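MYOD1, MYF6 and MEF2D passed under none of 17 alternatives each. The mean of MYOD1 was below 0 without 1 array and that of MYF6 under 3 alternatives, while that of MEF2D stayed below 0, from -1.36 to -0.50. MEF2D averaged -1.87 on replicate A and 0.014 on replicate B. Every alternative kept arrays of replicate A, so this range cannot show whether the dye orientations were alike. With single arrays left out MYOD1 ranged from -0.21 (without the day 3 replicate A) to 0.50 (without the day 3 replicate B), and MYF6 from -0.14 to 0.43. MYF6 was -0.050 with the first spot and -0.020 without day 3. With single arrays left out, the change from day 1 to day 6 ranged from -0.033 to 0.74 for MYOD1, -0.70 to 0.12 for MYF6 and -1.31 to 1.28 for MEF2D. It was 0.76 for MYOD1 with neighbouring probes subtracted, and for MEF2D 0.15 with scale normalization, -2.24 with the first spot and 2.23 with the second. Of the day means, MYOD1 on day 6 was 0.69 with neighbouring probes subtracted, and MYF6 on day 6 was 0.30 under that setting, -0.63 with the first spot and 0.30 with the second. The causes were not tested. When 1 array of a day was left out, the lone array was assumed to vary like the others.

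Features that passed over the days were 10 with 6 separate arrays, 5 with 6 separate arrays and the replicate block, 4 with neighbouring probes subtracted, 16 with the first spot, 4 with the second, 29 without day 1, 0 without day 3 or day 6, and 0 to 8 with an array left out. Those of day 6 against day 1 were 5 with the replicate block, 15 with separate probes, 14 with neighbours subtracted, 3 with the second spot and 0 to 28 with an array left out. Features at 1 unit on both arrays were 177, 204 and 268 by day, and at 3 units 8, 7 and 7. With the first spot they were 38 on day 1 and 86 on day 6, and with the second 36 on day 1. On 1 array alone they were 136 to 154, 211 to 216 and 236 to 249.

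Other named genes changed sign without passing. Neighbours subtracted gave E2F4 -0.28 and SCD -0.085. The first spot gave MB 0.40 and SCD -0.26; the second gave SMARCD3 0.050, IGFBP5 -0.51 and CNN1 -0.31. Without day 1 CDKN1C was 0.61, TEAD4 0.25, IGFBP5 -0.27, E2F4 -0.27 and SCD -0.38. Without day 3 VIM was 0.61. Without day 6 ANKRD2 was -0.17, SMARCD3 0.23, TNNT1 -0.37, MB 0.64, CNN1 -0.30 and SCD -0.34. With an array left out the ranges were -0.095 to 0.22 for ANKRD2, -0.67 to 0.038 for TEAD4, -0.69 to 0.88 for IGFBP5, -0.17 to 0.45 for E2F4, -0.018 to 0.37 for TNNT1, -0.91 to 0.020 for MB, -0.25 to 0.33 for SCD and -0.48 to 0.14 for VIM.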

Other observations

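Genes of the contractile apparatus and of muscle metabolism, which act downstream of MyoD, had day means that were not even over time. Of the 24 muscle differentiation genes, 12 had both day 6 arrays above both day 1 arrays and 2 had both below, while 20.2% and 19.6% of all features did so. These shares are not matched for probe number. CKM averaged 11 probes, TNNT1 9 and TNNT3 7, while ACTN3 and MYOM2 had 1. In the whole series 144 of 1521 genes had more than 1 probe. What this does to the counts was not tested. Markers of smooth muscle also stood higher on day 6 than on day 1: CNN1 changed by 2.09 (adjusted p = 0.569 in limma) and TAGLN by 0.82 (0.835). For the remaining markers of other lineages, FABP4, VIM and SCD, the changes were -1.12, -0.24 and -0.083 (adjusted p of 0.770, 0.967 and 0.988 in limma). By day VIM stood at 0.73, -1.73 and 0.49 and SCD at 0.88, -1.56 and 0.80, both lowest on day 3. Of the 5 markers of other lineages, 2 had both day 6 arrays above both day 1 arrays and 1 had both below. The part of such markers in the pattern was not tested. The genes here were picked after their values were seen. PGAM2, a muscle glycolytic enzyme, went from -2.17 on day 1 over -0.54 to 1.84 on day 6 (change 4.01, limma's adjusted p = 0.0904), and the fast troponin TNNI2 from -1.80 over 0.11 to 1.57 (3.37, 0.258). The fast troponin TNNT3 went from -0.91 over -0.46 to 1.17 (2.08, 0.569) and the skeletal actin ACTA1 from -1.38 to 1.70 (3.07, 0.534). ACTA1 read -0.58 and 3.97 on the day 6 arrays, so its day 6 mean rests on replicate B. ACTN3, the fast-fibre actinin, read 1.49 and 1.81 on day 6, after -0.25 and -0.22 on day 1. MB, the oxygen store of slow fibres, went the other way, from 0.094 to -2.61 (change -2.71, 0.528). None of these changes passed in limma.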
